A study of Equus caballus with 4 samples.

Results

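Excitation-contraction coupling is the chain of events by which an electrical signal at the surface of a muscle fibre releases calcium inside it. The genes described here encode the voltage sensor, the calcium release channels, the proteins that store and pump calcium, and the buffers, kinases and surface channels that act with them. They were taken from a list of 35 gene symbols and found on the array through the gene name that the files give each probe. A probe with one of these symbols was found for 23 of the 35 genes, and 19 of the 23 had a signal that allowed a test, of 15614 gene names or transcripts tested and 24998 on the array. Where the files gave only a transcript number or a locus number as the name, the gene description beside it was read as well, which raised the genes with a probe to 33 and the genes tested to 27. Results by symbol are given first, and genes found only by description are named as such.

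Equine satellite cells (ESC), the stem cells of skeletal muscle, came from *m. semitendinosus* of colts less than a year old and were preplated to reduce fibroblasts. They were kept in differentiation medium for 3 d, and for the last 24 h one culture received HMB (*β*-hydroxy-*β*-methylbutyrate, which the body makes from leucine), while the control stayed in the same medium without HMB. The methods give the dose as 50 µM and the sample labels as 50 µg, and one label field calls the cells GO-treated, whereas the titles, which were used, name HMB. RNA of HMB-treated cells (Cy5) and control cells (Cy3) was hybridised together on two-colour arrays of 60-base horse probes, *n* 4. By the methods, the cells of each flask were divided between an HMB plate and a control plate. The sources used here name no colt for any array and do not say that the HMB and control RNA put together on it came from the same flask, so that P values measure the spread between these arrays. The dyes were never exchanged, and a bias of a probe towards 1 dye cannot be told apart from an effect of HMB. With only 4 arrays, each mean is known with limited precision.

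In skeletal muscle the L-type calcium channel of the transverse tubule acts mainly as a voltage sensor and opens the ryanodine receptor of the sarcoplasmic reticulum by direct contact. Calcium stored in the reticulum on calsequestrin then flows into the cytosol, and calcium ATPases pump it back. Much of this apparatus is built up when myoblasts fuse and mature into myotubes.

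Of the 19 genes tested by symbol, 17 had a signal well above background throughout in both channels, and 10 of the 17 passed an adjusted P of 0.05 in limma, 9 lower and 1 higher in HMB-treated than in control cells. Over all 14808 genes or transcripts with such a signal, 21.4% passed, 11.1% lower and 10.3% higher. The median log2 ratio of HMB-treated to control cells was -0.56 for the 17 genes and 0.02 for all. On arrays 1 to 4 the median of the 17 genes was -0.25, -0.50, -0.54 and -0.60, and that of all genes was 0.01, 0.01, 0.03 and 0.01. The median was therefore lower on each array, least on array 1, where 6 of the 17 genes were above 0. Of the 17 genes, 10 were below 0 and 1 above 0 on all 4 arrays, and 45.8% of the 15614 tested in all had the same sign on all 4. With genes found by description, 15 of 24 passed, 14 lower and 1 higher, with a median of -0.56. The other 3 tested genes, *CACNG1* and *TRDN* by symbol and *JSRP1* by description, could enter the test only through the control channel, where they were higher, so that their ratios are given as a description without P values. Counting them, 12 of 19 passed by symbol, 11 of them lower, and 18 of 27 with descriptions, 17 of them lower. Of the 15614 tested in all, 22.4% passed (11.6% lower, 10.9% higher). The counts with these 3 genes add no support, because the filter favours a lower call for them. Except where the 17 genes are named, the counts of alternatives that follow include these genes. Without array 2, 5 of the 17 genes passed, and without array 3 also 5, compared with 11 when array 1 or array 4 was omitted. In a test on the 4 ratios of each probe alone (here called the methods' t-test, although the methods section does not name it) 1 gene passed. In a separate alternative, limma with dim probes kept, 4 passed. All 18 genes kept their direction in each alternative computed gene by gene. Fewer cells of a type and less RNA per cell cannot be told apart in these bulk samples.

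**Figure D1:**
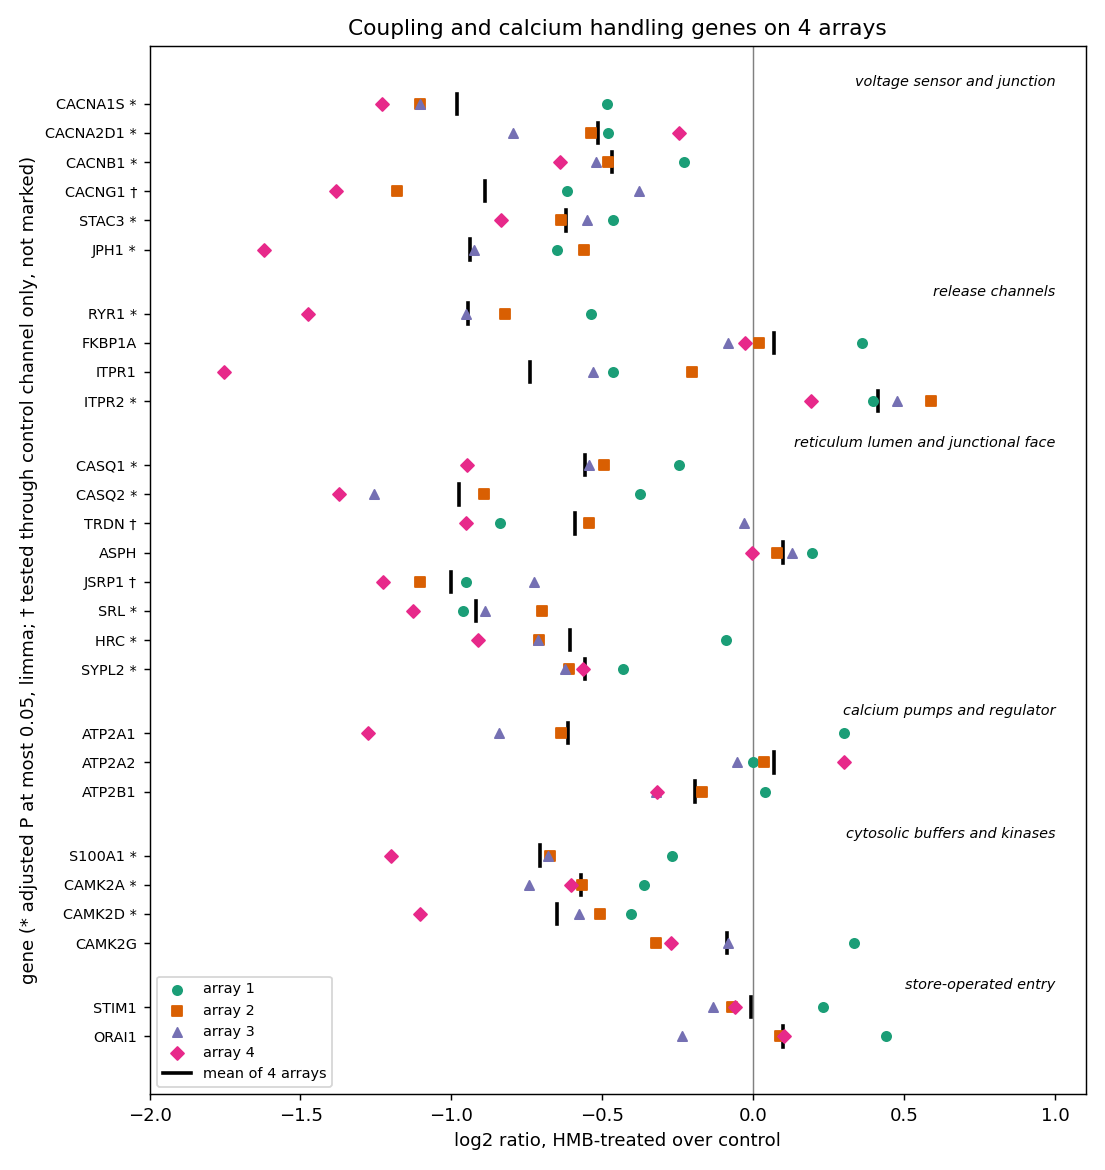
The log2 ratio of HMB-treated to control cells on the horizontal axis is plotted for the 27 tested genes, grouped by role, with a symbol for each of 4 arrays and a bar for the mean. An asterisk marks an adjusted P of at most 0.05 in limma for the genes with both channels well above background, and 14 of the 15 genes so marked lie to the left of 0. A dagger marks the 3 genes tested only through the control channel.

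**Figure D2:**
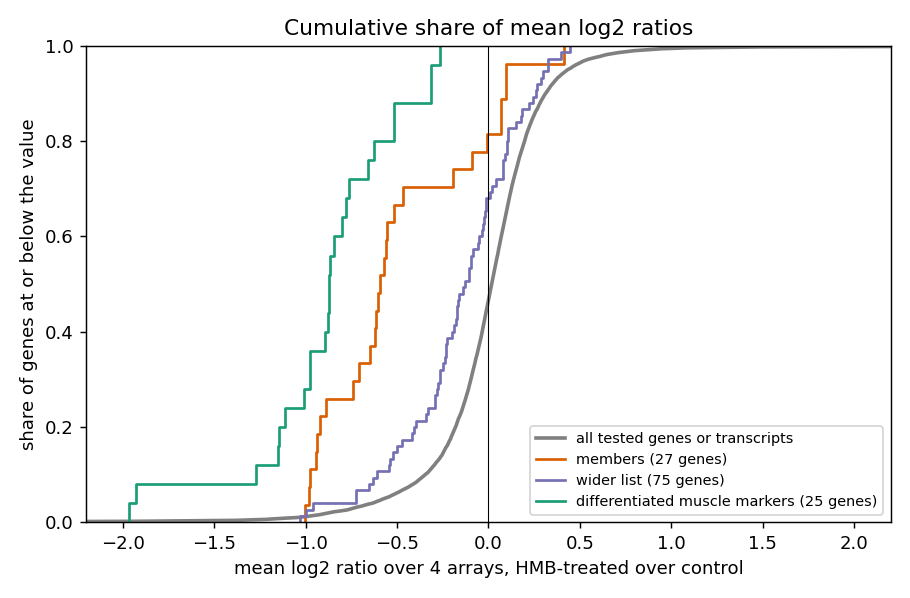
Each line gives the share of genes, on the vertical axis, whose mean log2 ratio of HMB-treated to control cells is at or below the value on the horizontal axis. The line of the 27 members lies to the left of that of all tested genes, with medians of -0.59 and 0.02, although 3 of the 27 were tested only through the control channel, and that of the differentiated muscle markers lies further left.

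All 5 genes of the voltage sensor and its junction with the reticulum that had both channels well above background passed in limma, all lower. Of all genes with such a signal, 11.1% passed as lower. Without array 2, 3 of the 5 passed, and without array 3, 2 of the 5. *CACNA1S*, the pore-forming subunit and voltage sensor, was found by description. Its ratio was -0.48, -1.10, -1.11 and -1.23 on arrays 1 to 4, so that array 1 stood above the others. The mean was -0.98 ± 0.34 (SD, *n* 4), a signal 1.97-fold higher in control cells (limma adjusted P = 0.00544). All 3 of its probes had means between -0.98 and -0.71. The probe at -0.71 was tested only through the control channel, and the others passed. Of the dimmer probes, 1 is also listed for a related channel gene and its signal is uncertain.

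The adaptor gene *STAC3*, needed for the sensor to reach and act at the triad, had ratios of -0.47, -0.64, -0.55 and -0.84. All 4 arrays were lower, with a mean of -0.62 ± 0.16 (limma adjusted P = 0.0049). The auxiliary subunits *CACNA2D1* and *CACNB1* had means of -0.52 and -0.47. Each was lower on 4 arrays, but *CACNA2D1* did not pass without array 2 (limma adjusted P = 0.0592) or array 3 (0.0506), and *CACNB1* did not without array 2 (0.055) or array 3 (0.0555). For the subunit *CACNG1* the signal in HMB-treated cells was well above background on 2 of 4 arrays, and its mean was -0.89, or -0.32 with normexp and loess. *JPH1*, which ties the reticulum to the transverse tubule and was found by description, had ratios of -0.65, -0.56, -0.92 and -1.62, lowest on array 4. Its mean was -0.94 ± 0.48 (limma adjusted P = 0.015, and 0.0512 without array 3), and -0.54 with normexp and loess. The related *JPH2* was not well above background in either channel.

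The release channel *RYR1* was found by description, with 17 probes of 1 transcript, of which 9 were tested. The brightest probe and one from the other end of the listed positions are shown because their ratios differed. In the first, capitals mark the 22 bases that all 5 overlapping probes there share.
RYR1-end: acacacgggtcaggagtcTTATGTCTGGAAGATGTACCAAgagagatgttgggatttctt
RYR1-start: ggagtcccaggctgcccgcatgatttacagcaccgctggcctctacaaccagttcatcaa
On EquCab1, the build named in the files, the first lies at chr10:9601207-9601411, a span of 205 bases, and the second at chr10:9507775-9507834, both listed in ascending order.

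The RYR1-end probe had ratios of -0.54, -0.82, -0.95 and -1.47 on arrays 1 to 4. All were below 0, with a mean of -0.95 ± 0.39, or 1.93-fold higher signal in control cells (limma adjusted P = 0.00877). The 6 tested probes of that end were all lower, with means between -0.97 and -0.70. The RYR1-start probe had ratios of -0.13, -0.12, 0.05 and -0.11, which lie close to 0. Its mean was -0.08 ± 0.08 (limma adjusted P = 0.411). The 3 tested probes of that end had means between -0.16 and -0.07, and 0 of the 3 passed. The ends are 87367 bases apart. Of 60 bases, 27 to 31 were G or C in the probes that passed and 33 to 34 in those that did not. The probes that passed were also brighter, with a mean log2 intensity over both channels of 7.54 to 8.22, compared with 5.32 to 6.21. The 8 probes not tested lie between the ends and had means between -1.59 and -0.03. Their signal was not well above background throughout in either channel. The parts of base content and of brightness in the difference were not tested.

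**Figure D3:**
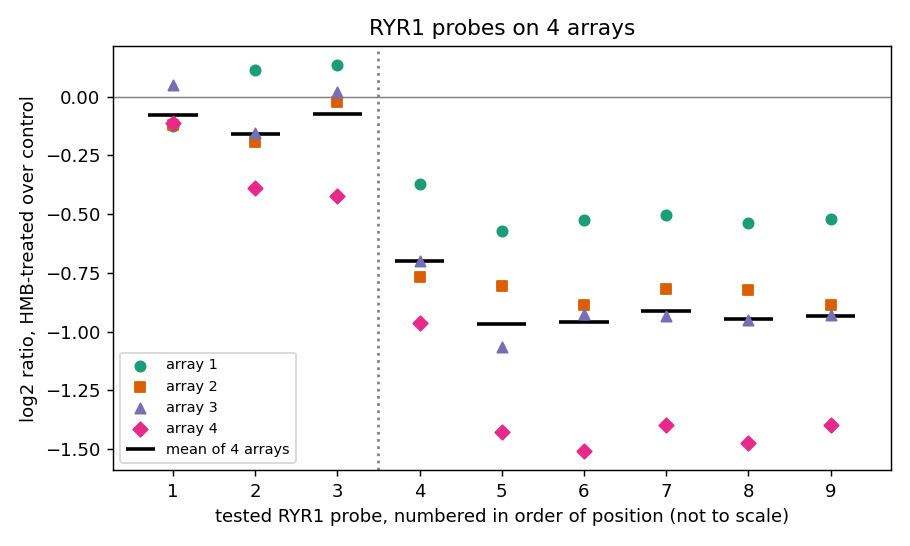
The log2 ratio of HMB-treated to control cells on the vertical axis is plotted for the 9 tested *RYR1* probes in order of position, with a symbol for each of 4 arrays and a bar for the mean. Probes 1 to 3 have means between -0.16 and -0.07, and probes 4 to 9, right of the dotted line, between -0.97 and -0.70.

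The other tested genes of this role, which had values on both sides of 0, were measured by symbol. *ITPR2*, an inositol trisphosphate receptor, was the 1 gene that was higher, with ratios of 0.40, 0.59, 0.47 and 0.19. All 4 were above 0, with a mean of 0.41 ± 0.17 (limma adjusted P = 0.0174). It did not pass without array 2 (0.0801), without array 3 (0.0739), with normexp and loess (a mean of 0.17, 0.0579) or without lowess (0.25, 0.0917). *ITPR1*, another receptor of the family, had ratios of -0.46, -0.20, -0.53 and -1.75, with array 4 far below the others. Its mean of -0.74 ± 0.69 did not pass (limma adjusted P = 0.0745), but did with the array as replicate block (0.0321) and without array 4 (a mean of -0.40, 0.035). *FKBP1A*, whose protein binds and steadies the ryanodine receptor, had a mean of 0.07 ± 0.20 (limma adjusted P = 0.614). All 10 of its probes were tested and had means between 0.05 and 0.16, but without lowess the brightest had a mean of 0.38 and passed (0.0116), and without array 1 it had a mean of -0.03. *RYR3* was found by description and set aside, its signal being well above background on 3 arrays in control cells and on 0 in HMB-treated cells.

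Among the 8 genes of the reticulum lumen and its junctional face, 6 had both channels well above background. Of the 6, 5 passed as lower, beside 11.1% of all genes with such a signal. *JSRP1* and *TRDN* were tested only through the control channel. The probes of *SRL*, the calcium-binding sarcalumenin, and of *JSRP1*, a junctional protein found by description, are given so that the measured part of each transcript is known.
SRL: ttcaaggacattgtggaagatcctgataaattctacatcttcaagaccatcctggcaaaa
JSRP1: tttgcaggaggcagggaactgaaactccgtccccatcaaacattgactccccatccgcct
The *SRL* probe lies on the unplaced sequence of EquCab1, chrUn:75858982-75859041, listed in descending order.

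*SRL* had ratios of -0.96, -0.70, -0.89 and -1.13, which lie close together. Its mean was -0.92 ± 0.18, or 1.89-fold higher signal in control cells (limma adjusted P = 0.00194). *JSRP1* had ratios of -0.95, -1.10, -0.73 and -1.23. Its signal was well above background on 4 arrays in control cells and on 0 in HMB-treated cells, so that the size of the difference is uncertain. With normexp and loess its mean log2 ratio was -0.29. The control mean was 1.60-fold above the lowest signal well above background, after loess and scaling between arrays. This value is no lower bound for the difference and is open to dye bias.

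*CASQ1* and *CASQ2* encode calsequestrins, which bind calcium in the reticulum. *CASQ2*, found by description, had ratios of -0.38, -0.89, -1.26 and -1.37. Array 1 was the least low, and the mean was -0.97 ± 0.45 (limma adjusted P = 0.0115). *CASQ1* had a mean of -0.56 ± 0.29 (limma adjusted P = 0.0199, but 0.0611 without array 2 and 0.068 without array 3). *SYPL2*, or mitsugumin 29, had ratios of -0.43, -0.61, -0.62 and -0.56. These lay close together, with a mean of -0.56 ± 0.09 (limma adjusted P = 0.00391), and this was the 1 gene that passed in the methods' t-test.

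Triadin (*TRDN*), which anchors calsequestrin to the release channel, had ratios of -0.84, -0.54, -0.03 and -0.95. Array 3 was close to 0, and the mean was -0.59 ± 0.41, or -0.21 with normexp and loess, with a signal in HMB-treated cells well above background on 3 of 4 arrays. *HRC*, a histidine-rich calcium-binding protein found by description, had a mean of -0.61 ± 0.36 (limma adjusted P = 0.0245), and did not pass without array 2 (0.0841), array 3 (0.0881) or array 4 (0.0632). *ASPH*, found by description, encodes both junctin and an aspartate hydroxylase, which the probe may not separate. Its mean was 0.10 ± 0.08 (limma adjusted P = 0.299).

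None of the 3 tested pump genes passed in limma, while 1 had an unadjusted P under 0.05. *ATP2A1*, the calcium pump of fast fibres, had ratios of 0.30, -0.64, -0.84 and -1.27. Array 1 was above 0 and the other arrays below it, and the mean was -0.61 ± 0.66 (limma adjusted P = 0.108). Without array 1 the mean was -0.92 and the gene passed (0.0199), and without array 4 the mean was -0.39 (0.269). Its 6 probes, 5 of which overlap, had means between -0.72 and -0.47. *ATP2A2*, the pump of slow fibres and of non-muscle cells, had ratios of 0.00, 0.04, -0.06 and 0.30, with a mean of 0.07 ± 0.16 (limma adjusted P = 0.549), and -0.01 without array 4. The plasma membrane pump *ATP2B1*, found by description, had a mean of -0.19 ± 0.17 (limma adjusted P = 0.134), although 1 of its 3 probes passed. No probe was found for *SLN*, the pump regulator sarcolipin, by symbol or description.

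Of the cytosolic buffers and kinases, 3 of 4 tested genes passed as lower, beside 11.1% of all genes with both channels well above background. *S100A1*, a calcium sensor that binds the ryanodine receptor, had ratios of -0.27, -0.67, -0.68 and -1.20. Its mean was -0.71 ± 0.38 (limma adjusted P = 0.019, but 0.0584 without array 2 and 0.0624 without array 3). *CAMK2A*, a calmodulin-dependent kinase subunit, had ratios of -0.36, -0.57, -0.74 and -0.60. All were lower, with a mean of -0.57 ± 0.16 (limma adjusted P = 0.00623), and -0.35 with normexp and loess. *CAMK2D* had a mean of -0.65 ± 0.31 (limma adjusted P = 0.0154), and all 3 of its probes passed, between -0.96 and -0.49. *CAMK2G* had a mean of -0.09 ± 0.30 (limma adjusted P = 0.619), which was -0.23 without array 1 and -0.0085 without array 2. *PVALB* (parvalbumin) and *MYLK2*, with 5 probes, were set aside as dim, and no probe was found for *CAMK2B*.

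The store-operated entry genes *STIM1*, the reticulum calcium sensor, and *ORAI1*, its surface channel, had means of -0.01 ± 0.16 and 0.10 ± 0.28 (limma adjusted P = 0.948 and 0.551). The sign of *STIM1* turned to 0.02 with normexp and loess, and that of *ORAI1* to -0.02 without array 1. *SCN4A* and *CLCN1*, the sodium and chloride channels of the fibre surface, were set aside as dim.

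Related genes were compared within arrays, for the 5 pairs with both genes tested. The smallest P that the exact sign-reversal test can give over 4 arrays, two-sided, rounds to 0.13, so that no pair could pass a threshold of 0.05. *ITPR1* minus *ITPR2* was -0.86, -0.79, -1.01 and -1.94, below 0 on each array, with a mean of -1.15 ± 0.54 (exact P = 0.13, adjusted over 5 pairs 0.208). *CASQ1* minus *CASQ2* was above 0 on 4 arrays, with a mean of 0.41 ± 0.24 (exact P = 0.13, adjusted 0.208). *CAMK2G* minus *CAMK2D* was also above 0 on 4 arrays, with a mean of 0.56 ± 0.29 (exact P = 0.13, adjusted 0.208). *ATP2A1* minus *ATP2A2* was 0.30, -0.67, -0.79 and -1.57, and array 1 differed in sign from the others, with a mean of -0.68 ± 0.77 (exact P = 0.25, adjusted 0.312). The mean of this pair was -1.01 without array 1 and -0.39 without array 4. *CAMK2A* minus *CAMK2D* had a mean of 0.08 ± 0.29 (exact P = 0.875), and its sign turned to -0.12 without lowess. The probes of a pair differed in brightness. Mean log2 intensity over both channels was 8.41 for *ITPR1* and 5.13 for *ITPR2*, 7.08 for *CASQ1* and 12.15 for *CASQ2*. It was 5.72 for *CAMK2G*, 5.95 for *CAMK2A* and 11.76 for *CAMK2D*, and 10.97 for *ATP2A1* and 12.2 for *ATP2A2*. The part of brightness in the differences was not tested.

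**Figure D4:**
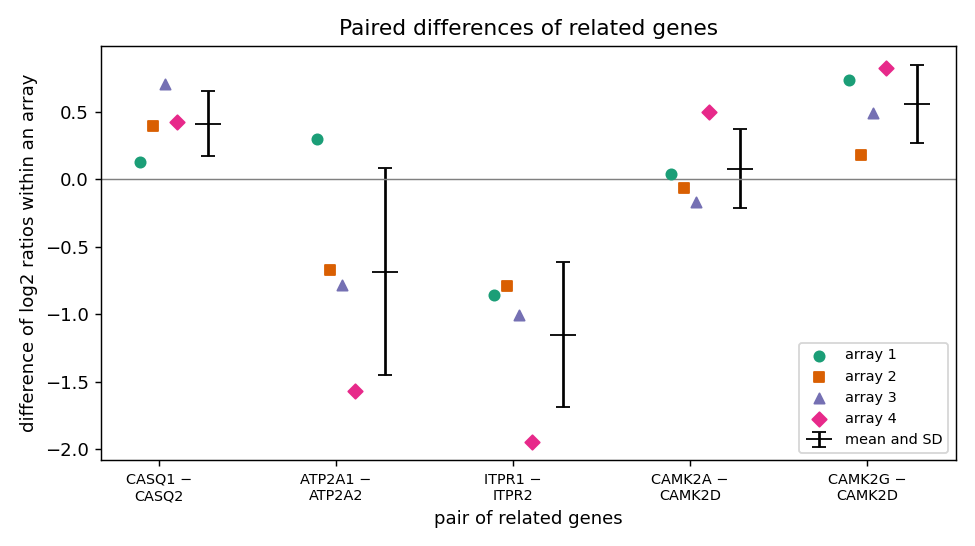
The difference between the log2 ratios of 2 related genes within an array, on the vertical axis, is plotted for 5 pairs, with a symbol for each of 4 arrays and the mean and SD beside them. *ITPR1* minus *ITPR2* is below 0 on each array, and *CASQ1* minus *CASQ2* and *CAMK2G* minus *CAMK2D* are above 0 on each.

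Of 112 other genes of coupling, calcium handling and excitability, 59 found by symbol had both channels well above background and 22 passed in limma, 15 lower and 7 higher, beside 21.4% of all such genes, 11.1% lower and 10.3% higher. Their median log2 ratio was -0.11. Of all 62 tested, 23 passed, beside 22.4% of all tested genes. Omitting array 2 left 12 genes and omitting array 3 left 10. Phospholamban (*PLN*), a regulator of the slow-fibre pump, had ratios of -0.997, -0.91, -0.88 and -1.32. Its mean was -1.03 ± 0.20, or -0.46 with normexp and loess. It was tested only through the control channel, its signal in HMB-treated cells being well above background on 3 of 4 arrays, and no P value is given. The muscle protein *ATP1B4* (-0.996), the myosin light chain kinase *MYLK* (-0.96), the cardiac release channel *RYR2* (-0.73), the scaffold *HOMER1* (-0.65) and the reticulum cation channel *TMEM38B* (-0.63) were lower. So were the potassium channels *KCNJ11* (-0.55) and *KCNJ2* (-0.54), the receptor *ITPR3* (-0.52) and the Golgi pump *ATP2C1* (-0.47). The calcineurin-dependent transcription factor *NFATC4* was higher, at 0.45. In limma, *RYR2* did not pass without array 1 (adjusted P = 0.0737), nor *KCNJ11* without array 2 (0.0544), nor *HOMER1* (0.0548) and *NFATC4* (0.052) without array 3. *ITPR3* did not pass without array 3 (limma adjusted P = 0.0962) or array 4 (0.084). The sodium-calcium exchanger *SLC8A3*, also tested only through the control channel, had a mean of -0.50. With normexp and loess the means of *ATP1B4* (-0.47), *RYR2* (-0.45), *KCNJ11* (-0.34), *KCNJ2* (-0.24) and *SLC8A3* (-0.22) were closer to 0.

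Markers of differentiated muscle moved with these genes. By symbol, 17 of the 18 with both channels well above background passed in limma, all lower, beside 11.1% of all such genes. With descriptions, 21 of 24 passed, all lower. *CAV3* (-0.31, limma adjusted P = 0.0761) did not pass, nor did *TTN* (-0.31, 0.0854) and *MYMK* (-0.27, 0.114), both found by description. The median of the 18 was -0.89, with medians of -0.41, -0.85, -1.05 and -1.34 on arrays 1 to 4. With *MYH2*, tested only through the control channel, 18 of 19 passed. Omitting array 2 left 12 of the 19 and omitting array 3 left 11, while 0 passed in the methods' t-test, 13 with separate channels and no replicate block, and 6 of 21 with dim probes kept. The log2 of their summed signal was 17.93, 17.48, 17.39 and 17.24 in HMB-treated cells and 18.42, 18.47, 18.54 and 18.63 in control cells. Among those with both channels well above background, the lowest means were those of the myosin heavy chain *MYH8* (-1.93), *MYOM2* (-1.27) and troponin C *TNNC2* (-1.15). They were followed by *MYH7* (-1.15), *MYH3* (-1.11), *ACTN3* (-1.01), *TNNC1* (-0.98), *ACTA1* (-0.98), *MYL4* (-0.90), *TNNI2* (-0.88) and *NEB* (-0.87). The mean of *MYH2*, another heavy chain, was -1.96, or -0.72 with normexp and loess, with a signal in HMB-treated cells well above background on 2 of 4 arrays. Without lowess the means of *MYH7* (-0.54), *TNNC1* (-0.50), *ACTA1* (-0.38), *MYH3* (-0.37) and *MYL4* (-0.34) were closer to 0, and *MYH3* did not pass (limma adjusted P = 0.0522). *NEB* did not pass without array 2 (limma adjusted P = 0.0597) or array 3 (0.0814). Of the myoblast markers, 5 of 6 tested passed, all lower, beside 11.1% of all genes with both channels well above background. The 5 were *MYF5* (-1.01), *DES* (-0.98, and -0.62 without lowess), *NCAM1* (-0.90), *MYOD1* (-0.46) and *MYOG* (-0.42). The dimmer of the 2 *MYOD1* probes had a mean of -0.20 and did not pass. *MET* did not pass either (-0.10, limma adjusted P = 0.609), and its 3 probes had means between -0.10 and 0.16. With descriptions, 7 of 8 passed, among them *ITGA7* (-0.86) and *CDH15* (-0.77). *MYOG* did not pass without array 2 (limma adjusted P = 0.0625) or array 3 (0.0901), nor did *MYOD1* without array 2 (0.0875), array 3 (0.0902) or array 4 (0.0604). The log2 of their summed signal was 14.76, 14.38, 14.26 and 14.38 in HMB-treated cells and 15.23, 15.18, 15.30 and 15.35 in control cells, and the brightest probe was that of *DES*. The part of cell composition or of the stage of differentiation in the lower coupling genes was not tested.

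The counts of the other marker lists are to be read beside all genes with both channels well above background. Of these, 21.4% passed, 11.1% lower and 10.3% higher. Probe brightness does not rank genes by their RNA. Of the fibroblast markers, 2 of 8 tested passed, a share near that of all genes, both higher, *PDGFRA* (1.53, and 0.89 with normexp and loess) and *FAP* (0.42), the latter not without array 1 (limma adjusted P = 0.0527), array 2 (0.0802) or array 3 (0.0747). *COL1A2*, whose probe was the brightest, had a mean of -0.20 that turned to 0.17 with normexp and loess and to 0.86 without lowess, where it passed as higher (limma adjusted P = 0.00108). Its mean was -0.31 without array 1 and -0.08 without array 4. Its 9 probes had means between -0.59 and -0.20, and 2 of them passed as lower. The log2 of their summed signal was 18.58, 18.12, 18.23 and 18.24 in HMB-treated cells and 18.32, 18.22, 18.36 and 18.71 in control cells, so that HMB-treated cells were above control cells on array 1 only. Of the smooth muscle markers, 1 of the 4 with both channels well above background passed, *ACTG2* (-0.65), which had the brightest probe, and its mean was 0.22 without lowess. Without array 1, array 2 or array 3 in turn, *ACTG2* did not pass (limma adjusted P = 0.0586, 0.0727 and 0.0699). *MYH11*, tested only through the control channel, had a mean of -1.18, but -0.76 without array 4 and -0.45 with normexp and loess. *ACTG2* had a mean of -0.36 with normexp and loess and did not pass (limma adjusted P = 0.0563). The log2 of their summed signal was 16.87, 16.64, 16.46 and 16.75 in HMB-treated cells and 17.29, 17.27, 17.22 and 17.22 in control cells. Of the macrophage and leukocyte markers, 0 of 2 tested by symbol passed in limma. *CD14*, with the brighter probe, had a mean of 0.02 (-0.03 with normexp and loess), and *CD68*, the 1 gene with an unadjusted P under 0.05, had a mean of -0.29 (limma adjusted P = 0.120). With descriptions, 1 of 3 passed, the leukocyte marker *PTPRC*, which had the brightest probe and ratios of 0.47, 0.21, 0.22 and 0.21. Its mean was 0.28 ± 0.13 (limma adjusted P = 0.0374), and 0.51 without lowess. It did not pass without array 1 (limma adjusted P = 0.0678), array 2 (0.115), array 3 (0.110) or array 4 (0.0551). Only 8 of the 15 *PTPRC* probes had a signal that allowed a test. Of these, 6 were higher and 1 lower, with means between -0.48 and 0.37. The log2 of the summed signal of the 3 was 14.43, 14.02, 14.23 and 14.01 in HMB-treated cells and 14.05, 13.87, 14.07 and 13.93 in control cells. No endothelial or adipocyte marker had a signal that allowed a test, for 5 and 4 genes with a probe.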

How the data were processed

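Per the file headers, the authors made the files with Feature Extraction 10.10.1.1. The values used are the deposited log10 ratios (Cy5 over Cy3), background-subtracted and lowess-normalised by the authors, and the deposited intensity columns (mean, background and processed signals). Other deposited columns mark spot quality, and the deposited summary table repeats the log10 ratios. Each ratio was scaled by 3.32 into log2 units. Control and marked spots were left out, and replicate spots of a probe were averaged. Tested probes, 27384 in all, had 1 channel well above background throughout the 4 arrays and 3 or more values. The mean of each was tested against 0 with limma 3.58.1 (R 4.3.3), intercept only, with P values adjusted by the Benjamini and Hochberg method across these probes. Counts with both channels well above background come from a fit of those probes alone. The brightest tested probe stands for a gene. Python 3.11.15 with numpy 2.4.6, pandas 2.3.3, scipy 1.17.1 and matplotlib 3.10.9, and the R package data.table (version 1.17.8) served for tables and plots. The fit was tested on simulated data. Named are all members, up to 12 passing genes of largest mean with 1 sign on all arrays from each of the wider list and the differentiated muscle markers, and, of other marker lists, the gene with the brightest probe and every passing gene. *CD68* and the tested differentiated muscle and myoblast markers that did not pass are named as well. Members and lists were chosen with earlier results of these data known.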

Additional observations from a re-analysis of the deposited data

Results flagged for a closer look

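In 3 of 62 genes examined, 1 array lay far from the other 3, and chance gives such a value in about 1 in 20 groups. The log2 ratio of *CACNA1S* was -0.48 on array 1, above the other arrays. That of *ATP1B4* was -1.40 on array 3, below the other arrays, and that of *MYH7* was -0.70 on array 1, above the others.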

How the results depend on the processing

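In the methods' t-test, which the methods section does not name, 768 probes passed, compared with 6257 in limma's main setting, with 1 member (1 lower, 0 higher) by symbol and 1 (1 lower, 0 higher) with descriptions, 3 genes of the wider list and 0 differentiated muscle markers. With separate channels and no replicate block, 2226 probes, 7 members (6 lower), 11 lower members with descriptions and 12 wider genes passed. With the array as replicate block 7109 probes and 13 members passed. With no filter on dim probes, 3690 probes, 4 members (4 lower, 0 higher), 5 with descriptions (5 lower, 0 higher), 15 wider genes and 6 muscle markers passed. With an added minimum of 1.3-fold, 3863 probes and 14 wider genes passed. With normexp and loess, 0 members were higher by symbol and 0 with descriptions. Names from descriptions, an alternative chosen after seeing the data, gave 18 members, 17 lower. With no lowess, 59.2% of passing probes were higher, compared with 49.1% in the main setting, and with separate channels and no replicate block 29.9%.

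Without 1 array at a time, 2564 to 4981 probes passed, with 5 to 12 members (5 to 11 lower, 0 to 1 higher), 10 to 18 with descriptions (10 to 17 lower, 0 to 1 higher), 10 to 19 wider genes and 11 to 19 muscle markers, the fewest without array 2 or array 3. Of the 15 passing members with both channels well above background, 8 passed whichever array was left out.

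Signs turned with no lowess for *CAMK2A* minus *CAMK2D* (-0.12), *ACTG2* (0.22) and *COL1A2* (0.86), and with normexp and loess for *STIM1* (0.022), *COL1A2* (0.17) and *CD14* (-0.029). Without 1 array at a time, *CAMK2A* minus *CAMK2D* lay between -0.061 and 0.16, *FKBP1A* between -0.030 and 0.12, *ATP2A2* between -0.0068 and 0.11, *STIM1* between -0.088 and 0.033, *ORAI1* between -0.016 and 0.21 and *CD14* between -0.040 and 0.084. The causes were not tested. Signal near background limits *CACNG1*, *TRDN* and *JSRP1*.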
